A study of Mus musculus with 10 samples.

Results

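The resting transcriptome of liver sinusoidal endothelial cells was described from the 5 control arrays of a series of 10 arrays, chosen by their sample titles, Control (WT) mLSEC. Over these arrays 24704 genes were ranked by their mean signal. The control mice were siblings of Gata4-LSEC-KO mice, which came from a cross of the driver line C57BL/6N-Tg(Clec4g-icre)1.1Sgoe, with a Cre recombinase under control sequences of Clec4g, to the floxed line STOCK Gata4tm1.1Sad/J. The labels do not say which of these alleles the controls carried, nor the sex and age of the mice. Each array held RNA pooled from 3 mice, so the spread below is that between 5 pools and contains both animal and technical differences. Cells were freed with collagenase, enriched on a Nycodenz gradient and captured with magnetic beads that bind CD146, which Mcam encodes. Capture by 1 surface protein does not exclude other liver cells that carry it or stick to the beads, and markers of such cells are given below.

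Liver sinusoidal endothelial cells line the capillaries of the liver. They are perforated by open pores called fenestrae, sit on little organised basement membrane, and take up waste macromolecules and immune complexes from blood through scavenger receptors that deliver them to lysosomes. They also send signals to neighbouring hepatocytes: Wnt ligands that maintain the metabolic zones of the lobule, and bone morphogenetic proteins (BMPs) that set the production of the iron hormone hepcidin. GATA4 is a zinc finger transcription factor known as a regulator of this endothelial subtype.

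The values are log2 array signals, and ± stands for the SD over the 5 arrays unless another number is named. The arrays share 1 distribution after the authors' normalization, with a median of 3.71, a lowest value of 0.937 and a highest of 13.36. A rank here orders array signals and not RNA amounts, because probe sets bind their targets with different strength. A pair of general genes shows the limit: Rpl10, a ribosomal protein gene, gave 1.70 ± 0.27 and Eif4a1, a translation initiation factor gene, 1.94 ± 0.52, both far below the array median although every cell uses them. A low signal was therefore never read as absence. Control replicate 1 stood apart: its correlation with the other arrays, across all genes, was 0.935 to 0.944 in 4 pairs, against 0.984 to 0.988 in the 6 pairs without it. Results that rest on it are given with and without it. High signal means below a place in the top 10% by mean, which began at 6.97 and held 2470 genes. It held 2280 of the 19683 protein-coding genes (11.6%), the background for the counts that follow.

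The 4 markers that define the cells for this account were all near the top. Clec4g, a C-type lectin of liver and lymph node sinusoids, gave 11.78, 12.13, 11.94, 12.08 and 11.84 in replicates 1 to 5, and ranked 7. Dnase1l3, a secreted nuclease that digests DNA in serum, gave 11.58, 12, 12, 11.90 and 11.73, and ranked 9. Fcgr2b, the inhibitory IgG receptor that clears small immune complexes in the sinusoid, gave 11.73, 11.94, 11.71, 12 and 11.78, and ranked 10. Stab2, the hyaluronan scavenger receptor stabilin-2, gave 11.03, 11.48, 11.20, 11.34 and 11.02, and ranked 28. The markers were high in every pool, and none of the 4 had a gap of 1 log2 unit between any pair of pools. Only 11.4% of the genes of the top 10% had such a gap, so this is usual for bright genes.

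The bases before the start of these genes are shown because these genes mark the cells, and the letters searched are those known to be bound by GATA and ETS factors, whose own signals follow. RefSeq (GRCm38.p6) held 3 of the 4 markers, and the table has no entry for Dnase1l3. The 250 bases before the start are given 5′ to 3′ on the strand of the gene, with matches in capitals to GATA letters (AGATAA, where the first letter may also be T and the last also G) and to ETS letters (AGGAAG, where the first letter may also be C), on both strands. The regions are chr10:87007943-87008192 (minus strand) for Stab2, chr8:3720652-3720901 (minus strand) for Clec4g and chr1:170976072-170976321 (minus strand) for Fcgr2b.
Stab2: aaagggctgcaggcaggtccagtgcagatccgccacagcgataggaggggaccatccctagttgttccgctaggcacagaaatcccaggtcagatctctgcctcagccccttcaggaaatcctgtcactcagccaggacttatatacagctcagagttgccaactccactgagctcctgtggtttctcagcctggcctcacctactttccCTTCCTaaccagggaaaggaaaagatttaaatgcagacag
Clec4g: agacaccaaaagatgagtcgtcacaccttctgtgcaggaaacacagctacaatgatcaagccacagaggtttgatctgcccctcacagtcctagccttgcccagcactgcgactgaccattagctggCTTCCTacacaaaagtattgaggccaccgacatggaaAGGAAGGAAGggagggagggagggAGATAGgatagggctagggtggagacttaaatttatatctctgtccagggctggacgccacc
Fcgr2b: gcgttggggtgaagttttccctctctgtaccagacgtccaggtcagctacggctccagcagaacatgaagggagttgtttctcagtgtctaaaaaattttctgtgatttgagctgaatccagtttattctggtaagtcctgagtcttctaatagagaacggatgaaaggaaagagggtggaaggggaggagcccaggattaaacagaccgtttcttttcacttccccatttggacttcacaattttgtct
In Clec4g 1 GATA match began 62 bases before the start and 3 ETS matches began 123, 86 and 82 bases before it. Stab2 held 1 ETS match, 40 bases before the start, and no GATA match, and Fcgr2b held neither. Over 32851 promoters of this length 26.5% held a GATA match and 39.2% an ETS match, so these are common letters. A match is not a binding site, and no match says only that these letters are not in this window.

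The highest signals mixed a few general genes with genes of endothelial and scavenger function. The ribosomal RNA gene Rn18s-rs5 (13.36) and the small nuclear RNA gene Rn7sk (12.99) held the first places with the same value in every array, which normalization to a shared distribution gives to a probe set that is brightest everywhere. Selenop, which encodes the plasma selenium carrier selenoprotein P, was the highest named protein-coding gene at 12.46 ± 0.04. Its values were 12.48 in 4 arrays and 12.38 in replicate 2, where Igfbp7 held 12.48. The shared distribution sets the value of each place, so the small SD of Selenop reflects its place in the order. Igfbp7, an angiocrine binding protein of insulin-like growth factors, gave 11.68, 12.48, 12.38, 12.38 and 12.20. Eng, the BMP co-receptor endoglin, gave 11.37, 12.20, 12.13, 12.20 and 11.90. Both were lowest in replicate 1, and without it Igfbp7 was 12.36 ± 0.12 and Eng 12.11 ± 0.14 (n = 4).

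**Figure D1:**
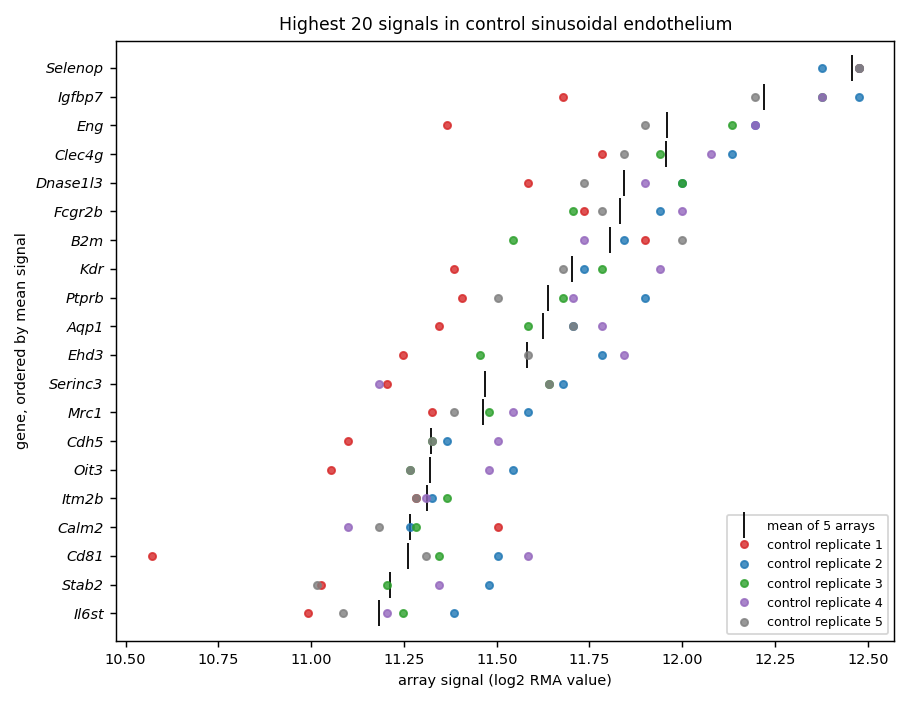
The 20 highest-ranked genes with names, without predicted genes and small RNAs, with 1 point for each control array (log2 RMA value on the x axis; points of equal value overlap) and a bar for the mean of 5 arrays. All points lie between 10.57 and 12.48, and replicate 1 holds the lowest point for most of the genes, with the widest gap in Cd81.

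The rest of the highest 20 included B2m (11.80 ± 0.17), the light chain of class I histocompatibility molecules, Aqp1 (11.62 ± 0.17), a water channel, and Ptprb (11.64 ± 0.19), the endothelial phosphatase VE-PTP. Ehd3 (11.58 ± 0.24), an endocytic recycling protein, and Oit3 (11.32 ± 0.19) are both known from sinusoidal endothelium. Cdh5, the adherens junction protein VE-cadherin, gave 11.32 ± 0.15, and Il6st, the signal subunit gp130 of the interleukin-6 family, 11.18 ± 0.15. The tetraspanin gene Cd81 gave 10.57 in replicate 1 and 11.31 to 11.58 in the others. Among the highest 100 signals 71 belonged to protein-coding genes and 13 to small nucleolar RNAs. The same 100 contained 13 of the 18 listed sinusoidal markers and 5 of the 18 pan-endothelial genes, 21 receptors, 12 secreted factors and 1 transcription factor, Maf.

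As a group, 17 of 18 sinusoidal markers and 18 of 18 pan-endothelial genes had high signal, with median means of 10.90 and 9.63. The sinusoidal list was nearly level over the pools, with list means of 10.30 to 10.48. Of its 18 genes 0 spanned 1 log2 unit or more, against 11.4% of the genes of the top 10%. At that share a list of 18 would hold few, so this 0 says little. The member outside the top 10% was Aass, a lysine-degrading enzyme gene (5.96 ± 0.15). Lower in the list stood Cd55 (7.41 ± 0.12), an inhibitor of complement, and Lyve1 (9.36 ± 0.31), the hyaluronan receptor of lymphatic and sinusoidal endothelium, which gave 9.87 in replicate 1 and 9.10 to 9.39 in the others. Mcam, whose product was used for the capture, was the lowest pan-endothelial gene at 7.69, 7.48, 7.89, 7.96 and 7.81. Its level checks only that captured cells carried it.

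Genes of continuous capillaries, the endothelium of muscle or lung with a closed wall, were split. High signal was found for 11 of 20, among them Aqp1, Gpihbp1 (10.68 ± 0.19), the anchor of lipoprotein lipase, Cd300lg (10.31 ± 0.23) and Fabp4 (9.89 ± 0.41), a fatty acid carrier. Fabp4 was highest in replicate 1 at 10.61 and lay between 9.60 and 9.87 in the others. Plvap, the protein of the diaphragm that closes fenestrae in other organs, gave 8.70, 9.40, 9.12, 9.30 and 9.13, and the tight junction gene Cldn5 8.78 ± 0.21. Cd34, a marker that rises when sinusoids become capillaries, gave 6.91, 7.36, 7.75, 7.34 and 7.57. Replicate 1 lay below the edge of the top 10% and the other pools above it. At the other end Meox2 (2.49 ± 0.28) and Ly6c1 (1.74 ± 0.20) gave signals under the array median in every pool.

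Receptors had high signal in 104 of 485 measured genes (21.4%), against 11.6% of all protein-coding genes, and their median mean was 3.89. Of the 485 genes 257 lay above the array median and 228 at or below it. By family the share ran from 21 of 46 integrins and adhesion molecules and 15 of 38 scavenger receptors to 21 of 190 G protein-coupled receptors. The lists were compiled with sinusoidal biology and earlier results in view, so a share above the background describes the lists and is no test.

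Scavenger and endocytic receptors were led by Fcgr2b, then Mrc1, the mannose receptor that takes up collagen fragments and glycoproteins, with 11.33, 11.58, 11.48, 11.54 and 11.38. Stab1, the sister of Stab2, gave 10.70, 11.20, 10.90, 11.16 and 10.78. Fcgrt, the neonatal Fc receptor that recycles IgG and albumin, gave 10.75 ± 0.27. Of these Fcgr2b (SD 0.13) and Mrc1 (SD 0.11) were steadier than the median gene of the top 10% (SD 0.183), and Stab1 (SD 0.23) and Fcgrt were not. Cd36, a fatty acid and lipoprotein receptor, gave 10.24 ± 0.13 and Msr1, the class A scavenger receptor, 9.69 ± 0.34. Of 43 C-type lectins 5 had high signal: Clec4g, the platelet-type receptor gene Clec1b (8.93 ± 0.13), Clec14a (9.26 ± 0.06), Clec2d (8.99 ± 0.09) and Clec4f (8.59 ± 0.74). Clec4f is a Kupffer cell receptor and itself a member of the Kupffer list. Its values were 7.64, 8.39, 8.28, 9.50 and 9.14. They followed the order of the Kupffer list means, to which Clec4f contributes, in all but replicates 2 and 3.

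The machinery behind these receptors was bright as well. Of 22 lysosomal genes 17 had high signal (median mean 9.09), led by the proteases Ctsb (11.05 ± 0.24) and Lgmn (10.86 ± 0.18), the membrane protein gene Lamp1 (10.60 ± 0.11) and Psap (10.58 ± 0.16), the precursor of saposins. The lysosomal list mean was 8.23 in replicate 1 and 8.83 to 9.19 in the others, and macrophages share many of these genes. The lowest members were Npc1, a cholesterol exporter (6.04 ± 0.70, with 4.80 in replicate 1), and Cd63 (4.90 ± 0.55). Of 19 clathrin endocytosis genes 13 had high signal, with the clathrin heavy chain gene Cltc at 9.91 ± 0.13 and the adaptor gene Dab2 at 9.75 ± 0.13. Ap2m1, the medium chain of the adaptor complex AP2, had only 5.43 ± 0.64 on this array, with 6.46 in replicate 3 and 4.80 to 5.51 in the others.

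**Figure D2:**
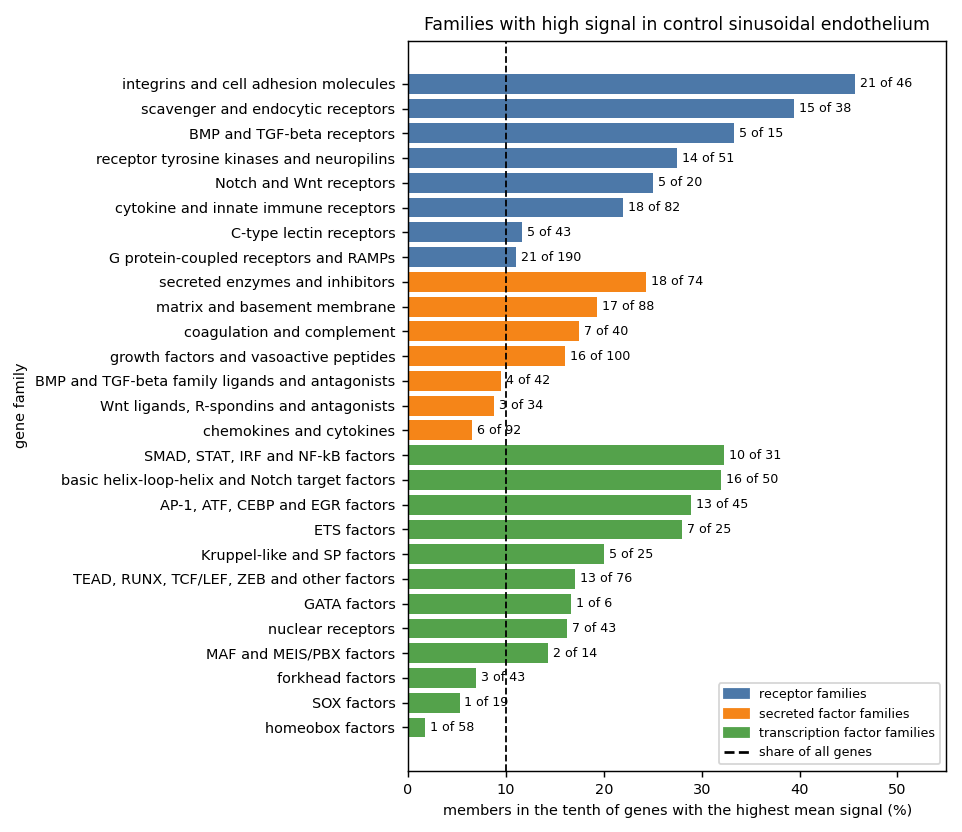
Share of the measured members of each family that lay in the top 10% of mean signal (x axis, percent; bars start at 0), coloured by class, with the share of all genes (10%) as a dashed line. Adhesion molecules (21 of 46) and scavenger receptors (15 of 38) have the longest bars, and homeobox factors (1 of 58) the shortest.

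Growth factor receptors of vessels formed the next tier. Kdr, the main receptor of vascular endothelial growth factor (VEGF), gave 11.38, 11.73, 11.78, 11.94 and 11.68. Its co-receptor gene Nrp1 gave 10.62 ± 0.17, Flt4, the VEGF-C receptor known from lymphatic vessels, 10.62 ± 0.23 and Flt1, the VEGF decoy receptor, 9.43 ± 0.13. The angiopoietin receptor gene Tek gave 10.01 ± 0.15 and its partner Tie1 9.68 ± 0.32. All 6 lay above the edge of the top 10% in every array. In total 14 of 51 receptor tyrosine kinases and neuropilins had high signal.

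Among 15 BMP and TGF-beta receptors 5 had high signal. Eng stood first, then the type 2 receptors Bmpr2 (9.99 ± 0.18) and Tgfbr2 (8.86 ± 0.11), while the type 1 receptor gene Acvrl1, which endothelial cells use for BMP9, gave 7.26, 7.01, 6.94, 6.83 and 7.14, values on both sides of the edge. Of 20 Notch and Wnt receptors 5 had high signal, with the Wnt co-receptor gene Lrp5 at 8.99 ± 0.11, the receptor gene Fzd4 at 8.83 ± 0.18 and Notch1 at 8.61 ± 0.13. The Notch ligand gene Dll4 gave 8.80 to 9.19 over the pools. Every value of Lrp5 lay above every value of Notch1, and the values of Fzd4 overlapped with both.

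G protein-coupled receptors were mostly dim, with a family median of 3.25, below the array median. The exceptions named here were bright, but not all were steady. Gpr182, a chemokine-scavenging receptor of sinusoidal and lymphatic endothelium, gave 10.94, 11.07, 11.14, 11.02 and 10.95. Calcrl, the receptor of the vasodilating peptide adrenomedullin, gave 10.36, 10.38, 10.39, 10.34 and 10.32, and its partner Ramp2 gave 9.17 ± 0.12. The adhesion-type receptors Adgrl4 (10.63 ± 0.14) and Adgrf5 (10.37 ± 0.21) and the sphingosine phosphate receptor gene S1pr1 (8.11 ± 0.09) were high in every pool. Ednrb, the endothelin receptor that triggers nitric oxide release, was not steady, at 6.29 in replicate 1 and 8.81, 8.63, 7.88 and 8.32 in the others.

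Cytokine receptors had high signal in 18 of 82 genes. Il6st led, followed by Lifr, the receptor chain of leukaemia inhibitory factor (10.60 ± 0.24), and Tnfrsf1a, the main tumour necrosis factor receptor (8.94 ± 0.23). Tlr4, the endotoxin receptor, lay at the edge with 6.26 in replicate 1 and 6.99 to 7.38 in the others. Adhesion molecules were led by Cdh5, Pecam1, the junction protein CD31 (10.57 ± 0.14), and Jam2 (10.34 ± 0.26). The collagen-binding integrin gene Itga1 gave 9.90 ± 0.19, with 9.66 to 10.18 over the pools.

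Secreted factors had high signal in 71 of 469 genes (15.1%), with a class median of 4.14. Enzymes and their inhibitors led with 18 of 74, which counts Selenop and Dnase1l3 and the cathepsins Ctsb, Ctsl (10.55 ± 0.14) and Ctsd (10.42 ± 0.22), proteases that act mainly in lysosomes and were also counted there. Chemokines and cytokines were fewest in proportion, with 6 of 92. The factors known to act on hepatocytes are given first.

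Bmp2 and Bmp6 are the endothelial ligands that induce hepcidin in hepatocytes. Bmp2 gave 10.64, 10.80, 10.79, 10.90 and 10.66, and Bmp6 gave 9.44, 9.41, 9.87, 9.90 and 9.67. Every value of Bmp2 was above every value of Bmp6, although 2 probe sets cannot be ordered by RNA amount. Ltbp4, which tethers latent TGF-beta to matrix, gave 9.99 ± 0.15 and Tgfb1 9.48 ± 0.16, and these 4 were all that had high signal among 42 ligands and antagonists of that superfamily.

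Of 34 Wnt ligands, R-spondins and antagonists 3 had high signal. Rspo3, which amplifies Wnt signals around the central vein, gave 8.02, 7.93, 7.94, 8.13 and 7.86, and Wnt2, a pericentral ligand, 7.75, 7.86, 7.66, 8.31 and 7.83. Their values overlapped between pools. Dkk3, named for its likeness to Wnt antagonists, gave 7.10 ± 0.21. Wnt9b, the other ligand known from central endothelium, gave 6.30, 6.45, 6.46, 6.73 and 6.18, below the edge in every pool and above the array median in every pool. Both Wnt2 and Wnt9b were highest in replicate 4.

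Other growth factors in the top 10% numbered 16 of 100. Igfbp7 led, then Igfbp4 (10.41 ± 0.08) and Gas6 (10.04 ± 0.09), the ligand of the TAM receptors that recognise dying cells. Hgf, the hepatocyte growth factor that both stellate and sinusoidal cells are known to make, gave 7.30, 8.14, 8.30, 8.49 and 8.67. Angpt2, the TIE2 ligand of activated endothelium, gave 6.13 ± 0.26, outside the top 10%. Vasoactive genes included Ece1, the endothelin-converting enzyme (9.86 ± 0.25), and Nos3, the endothelial nitric oxide synthase, at 7.97 ± 0.20 with its highest value, 8.32, in replicate 3. Edn1, the endothelin precursor, gave 4.97, 6.38, 6.51, 5.26 and 6.08 and stayed outside the top 10% in all pools.

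Of the chemokines and cytokines, Cxcl16, a membrane-bound ligand that holds natural killer T cells in the sinusoid, gave 9.67 ± 0.16. Il1a, an alarm cytokine, gave 9.57, 9.20, 9.34, 9.07 and 9.48, and Csf1, the growth factor of macrophages, 8.74 ± 0.47 with 8.002 in replicate 1. Cxcl12, the ligand of CXCR4, gave 5.82, 7.54, 7.23, 8.37 and 8.29. Hgf, Cxcl12 and Ednrb were lowest in replicate 1, the pool with the lowest mean for stellate cell markers (5.47, against 6.72 to 7.22). That pool stood alone downward in 698 genes, so a shared lowest value is common. The stellate list, Hgf and Cxcl12 were higher in replicates 4 and 5 than in replicates 2 and 3. Ednrb was lower there (7.88 and 8.32, against 8.81 and 8.63). The part of stellate cells in these values was not tested.

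Matrix genes had high signal in 17 of 88, with the calcium-binding glycoprotein gene Sparc at 11.14 ± 0.16, the proteoglycan gene Bgn at 11.12 ± 0.49 and Mmrn2, an endothelial matrix protein, at 9.76 ± 0.19. Bgn gave 10.28 in replicate 1 and 11.13 to 11.46 in the others. The basement membrane collagen gene Col4a1 gave 8.47 ± 0.09, high in every pool. Coagulation and complement genes had high signal in 7 of 40. F8, clotting factor VIII, which liver sinusoidal endothelium is known to supply, gave 10.59, 11.14, 10.92, 10.85 and 10.72. Vwf, the carrier of factor VIII and a marker of large vessels, gave 8.18, 8.55, 8.24, 7.67 and 7.72, and Tfpi, an inhibitor of the tissue factor pathway, 8.05 ± 0.20.

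Transcription factors had high signal in 79 of 433 genes (18.2%), with a class median of 4.99. Of these 6 lay in the top 1% of all genes. Maf stood first, a leucine zipper factor known from sinusoidal endothelium and macrophages, at 10.69, 10.72, 10.66, 10.82 and 10.48. Its highest value was in replicate 4, where the Kupffer list was also highest, and its lowest in replicate 5, where that list was second highest. The part of macrophages in the signal of Maf was not tested. When the ranking was confined to the 10699 genes brighter than the array median in every array, the top 10% held 1070 genes, not 2470. With this smaller set the count of transcription factors in it fell from 79 to 27. Receptors fell from 104 to 74 and secreted factors from 71 to 51.

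ETS factors, which bind the GGAA core in most endothelial promoters and enhancers, had high signal in 7 of 25. Ets2 gave 10.06 ± 0.18, Ets1 9.41 ± 0.19 and Fli1 9.24 ± 0.13, followed by Elk3 (9.12 ± 0.10), Elf1 (9.07 ± 0.16) and Erg (8.41 ± 0.21). Ets2 was above the other 5 in every pool. Ets1 and Erg were highest in replicate 1, at 9.69 and 8.64.

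Gata4 gave 8.53, 8.80, 8.90, 8.71 and 8.61 and ranked 483. It was the only 1 of 6 GATA factors with high signal (16.7%), a share near that of all listed transcription factors (18.2%). Gata2, the family member of most other endothelia and of blood progenitors, gave 5.75, 6.29, 6.05, 6.13 and 6.47, and Gata6 4.60, 5.08, 5.26, 4.81 and 4.95. The ranges of the 3 genes did not overlap, although their probe sets cannot be ordered by RNA amount. Gata2 and Gata6 were above the array median in every pool. Of the SOX factors, Sox18 (8.44 ± 0.17) was the 1 of 19 with high signal, while its relatives Sox17 (6.73 ± 0.12) and Sox7 (6.73 ± 0.28), which share roles in vessel development, had the same mean and lay outside.

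Among other families the hypoxia factor gene Epas1 (9.84 ± 0.13), Mef2a (9.45 ± 0.05) and Id3 (9.42 ± 0.24), a BMP target that blocks helix-loop-helix factors, were brightest. Smad6, the inhibitory SMAD that BMP signals induce, gave 8.63 ± 0.15, and the flow-responsive gene Klf2 7.68 ± 0.19, close to Klf7 (8.05 ± 0.12). Nr2f2, the venous identity factor COUP-TFII, gave 8.004, 7.47, 7.67, 7.36 and 7.37. Homeobox factors had high signal in 1 of 58, Hlx (8.51 ± 0.29). Hhex, which takes part in endothelial and liver development, lay below the edge at 6.58 ± 0.30, with 7.06 in replicate 1. Prox1, the factor that sets lymphatic identity, gave 3.50, 3.56, 3.32, 3.04 and 3.48, under the array median in all pools.

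**Figure D3:**
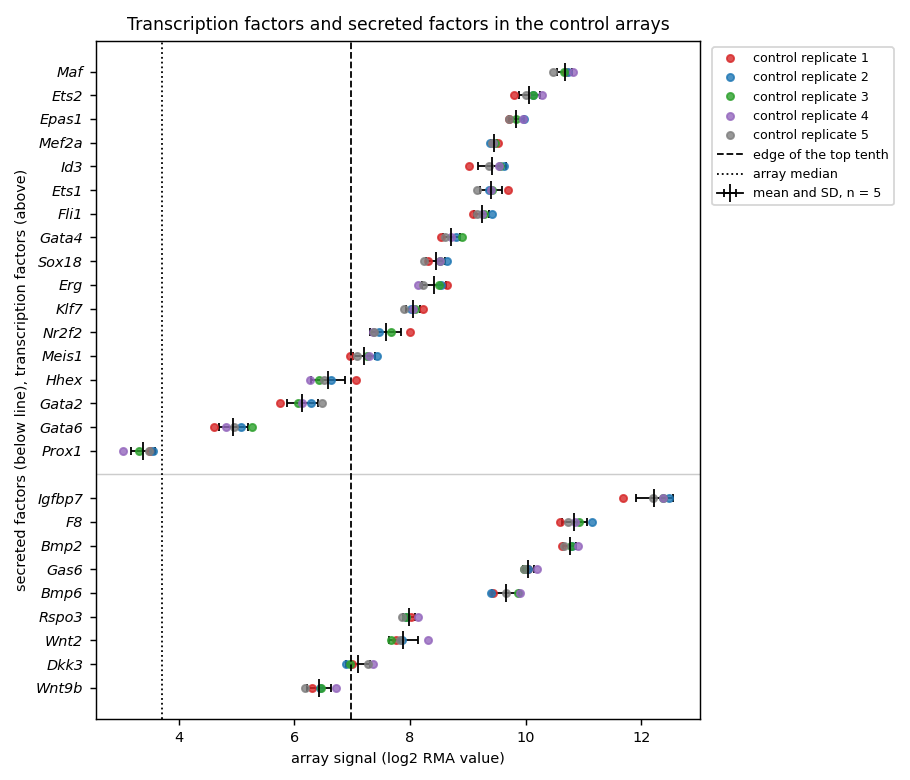
Signal of 17 transcription factors (above the grey line) and 9 secreted factors (below it) in each control array (points, log2 RMA value), with the mean and SD of 5 arrays as a bar. The dashed line marks the edge of the top 10% (6.97) and the dotted line the array median (3.71). Gata4 lies above the edge and Gata2 and Gata6 below it in all 5 arrays, and Wnt9b lies below Wnt2 in all 5.

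Genes known from both ends of the sinusoid, the central and the portal side, had high signal. Of 10 pericentral genes 7 had high signal and of 10 periportal genes 8. Plpp1, a lipid phosphatase, gave 10.72 ± 0.15 and Kit, the stem cell factor receptor of central sinusoids, 6.77, 8.70, 8.02, 8.67 and 8.49, with replicate 1 lowest. On the portal side Cd36, Ltbp4 and Clu, a chaperone (9.41 ± 0.29), were high, and the arterial gap junction gene Gja5 was not (5.71 ± 0.43). The periportal list mean was lowest in replicate 4 at 8.28 and highest in replicate 2 at 8.86, while the pericentral mean was highest in replicate 4 at 8.13.

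Class I histocompatibility genes were bright, with H2-D1 at 11.09, 10.52, 11.50, 10.74 and 11.16 and H2-K1 at 9.70 ± 0.19. These genes are polymorphic and near copies of each other, so probes may not tell them apart. Class II genes varied between pools. Cd74, the invariant chain, gave 7.76, 9.48, 9.07, 10.50 and 9.21, and H2-Ab1 6.58, 8.01, 7.94, 9.12 and 7.86. Both were lowest in replicate 1 and highest in replicate 4, as was the Kupffer list. The co-stimulatory gene Cd80 gave 2.91 ± 0.38, under the array median.

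Markers of other liver cells were measured in the same pools. Signal from fewer cells of a type and from less RNA per cell cannot be told apart in such bulk samples. Kupffer cell and macrophage markers had high signal in 7 of 15 genes, and the list means were 5.25, 6.53, 6.71, 7.76 and 7.28 in replicates 1 to 5. Stellate cell markers had high signal in 6 of 16, with list means of 5.47, 6.72, 6.73, 7.22 and 7.14. Both lists ran lowest in replicate 1 and highest in replicate 4. Without replicate 1 their means were 7.07 ± 0.56 and 6.95 ± 0.27 (n = 4). Over the same pools the sinusoidal list moved by 0.174 and the pan-endothelial list by 0.184 from the lowest to the highest pool, against 2.50 and 1.75 for these other lists.

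**Figure D4:**
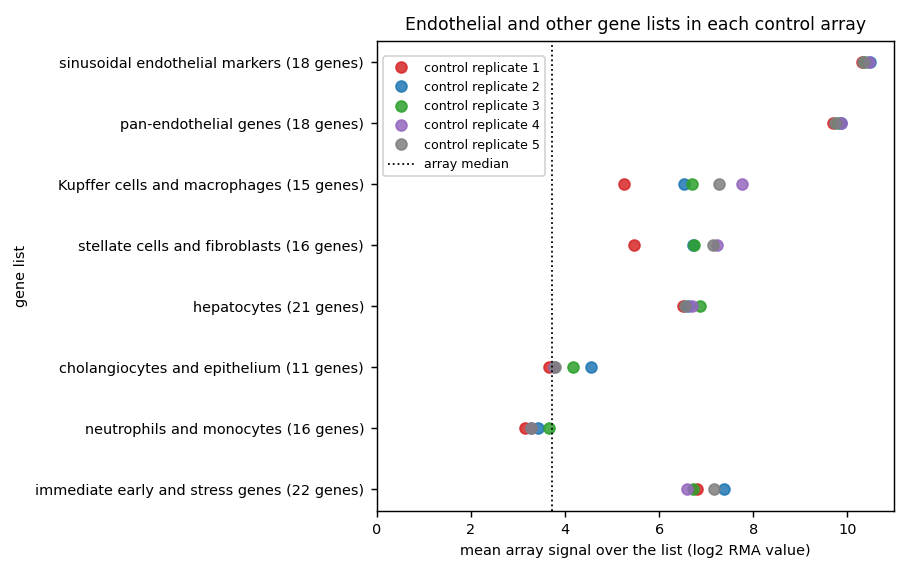
Mean signal over each gene list in each control array (points, log2 RMA value), with the array median as a dotted line. The sinusoidal list spans 0.174 and the pan-endothelial list 0.184 over the 5 arrays, while the Kupffer list runs from 5.25 in replicate 1 to 7.76 in replicate 4 and the stellate list from 5.47 to 7.22.

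Single genes of these lists were lowest in replicate 1 too. C1qb, a complement chain of macrophages, gave 5.00, 7.58, 7.19, 8.82 and 8.11, Vsig4, a complement receptor of Kupffer cells, 5.28, 6.85, 7.73, 8.73 and 8.19, and Timd4, a receptor for dying cells, 3.39, 5.97, 6.05, 7.41 and 6.73. The matrix gene Dcn of stellate cells and fibroblasts gave 8.004, 9.86, 9.75, 10.55 and 10.44, Lum 3.25, 6.14, 6.14, 7.20 and 7.23, and the pericyte gene Rgs5 6.24, 8.63, 8.68, 9.45 and 9.28. In each of the 6 genes replicate 1 was at least 1.57 log2 units below the next pool.

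Hepatocyte genes had high signal in 9 of 21, with list means of 6.51 to 6.88. Alb, the albumin gene, gave 9.27, 9.44, 9.57, 9.16 and 8.92, and Glul, which marks pericentral hepatocytes but is used by many cells, 9.51 ± 0.27. Ass1, a urea cycle gene, gave 8.16 in replicate 1 and 4.90 to 5.41 in the others. Cholangiocyte genes, neutrophil and monocyte genes, B cell, T cell, platelet and red cell genes had high signal in none of 11, 16, 12, 15, 8 and 6 genes. The median means of these lists lay between 3.03 and 4.01, near the array median. Among the brighter members were Ighm (6.33 ± 0.23), an immunoglobulin chain of B cells, and Sdc1 (5.89 ± 0.56), which plasma cells and epithelia express. Others were Epor (5.41 ± 0.45) of red cells, Krt8 (5.38 ± 0.28) of cholangiocytes, Ccl5 (5.30 ± 0.57) of T cells and Lcn2 (4.76 ± 0.60) of neutrophils. Of 12 dendritic cell genes 1 had high signal, Bst2 (8.94 ± 0.43), which the interferon list also held. Of 10 mesothelial and smooth muscle genes 2 had high signal, Rgs5 and the myosin gene Myh11 (6.79, 8.10, 8.62, 7.28 and 7.48).

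The spread between pools was small at the top of the ranking. The median SD was 0.238 over all genes and 0.183 over the top 10%, and 0.173 and 0.116 without replicate 1. By signal, the median SD rose from 0.166 for means under 2 to 0.322 for means of 4 to 6 and was 0.173 for means of 10 or more. Values spanned 1 log2 unit or more in 5035 genes (20.4%), and in 281 genes of the top 10% (11.4%). Without replicate 1 these counts were 1187 (4.80%) and 92 (3.72%). The steadiest bright messages were Vps35, a retromer subunit (SD 0.02), Sec63, a translocation factor (SD 0.03), and the RNA polymerase subunit gene Polr2g (SD 0.03). Among the markers Fcgr2b had the smallest SD, 0.13.

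In the top 10% the largest SDs belonged to Fabp7 (1.57), a fatty acid carrier, and C1qb (1.44), then Reln (1.36), Vsig4 (1.35), Serping1 (1.31), Cd5l (1.29), Rgs5 (1.29), Pcdhgb2 (1.23), Pltp (1.16) and the microRNA gene Mir702 (1.12). Replicate 1 was the lowest pool for all of these except Mir702, for which it was the highest. C1qb, Vsig4 and Cd5l stood on the Kupffer list, and Reln on the stellate and the lymphatic and large vessel lists. For Fabp7 the values were 4.28, 7.16, 7.35, 8.27 and 7.85, and without replicate 1 its SD was 0.50.

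**Figure D5:**
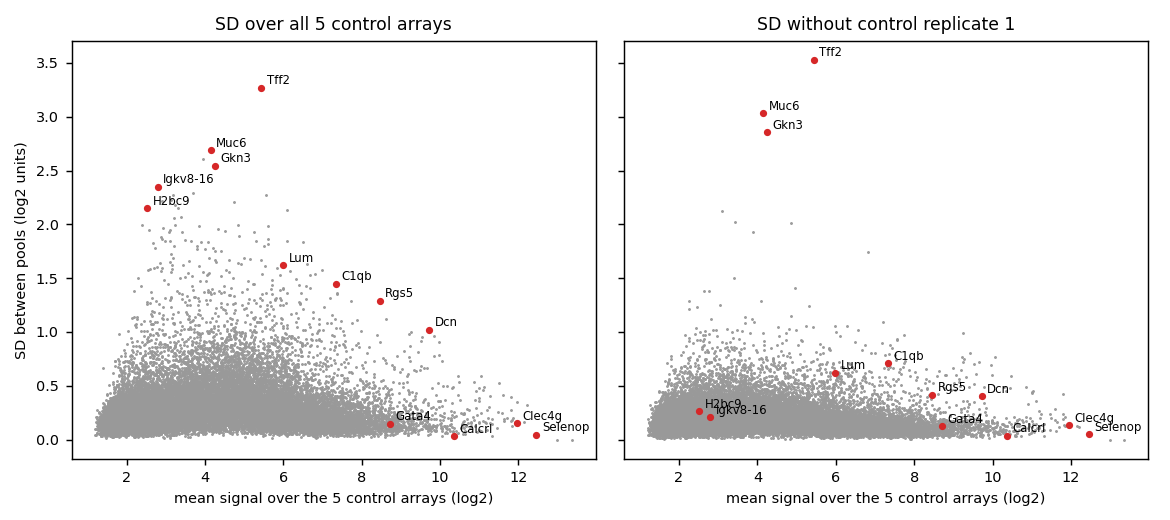
SD between control pools (y axis, log2 units) against the mean signal over the 5 control arrays (x axis, log2 RMA value), with 1 point for each of 24704 genes, over all 5 arrays on the left and without replicate 1 on the right. The SD of C1qb, Dcn, Lum and Rgs5 shrinks on the right, while Tff2, Muc6 and Gkn3 keep an SD above 2.8 there.

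Each pool had genes in which it stood alone by 1 log2 unit or more. Replicate 1 did so upward in 930 genes and downward in 698, against 18 to 39 upward and 4 to 12 downward in each of the others. Of its 930 high genes 340 were not typed as protein-coding, a group that includes immunoglobulin segments, and 22 were in the top 10%. Of all 24704 genes 19683 were typed as protein-coding and 2470 were in the top 10%. Among the largest gaps were those of Defa34, an intestinal defensin gene (7.75 against 2.35 to 3.18), the histone gene H2bc9 (6.34 against 1.26 to 1.80) and the immunoglobulin segment Igkv8-16 (6.99 against 1.59 to 2.03). Its 698 low genes, out of 24704 ranked, held 9 of 15 Kupffer and 6 of 16 stellate markers. They held 0 of the sinusoidal or pan-endothelial lists. At the share over all genes, lists of 18 genes would hold few or none, so this 0 says little.

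Replicate 2 stood alone in genes known from gastric mucus cells and from the exocrine pancreas. Tff2, a trefoil peptide gene, gave 11.25 in replicate 2 and 3.36 to 4.27 in the others, Muc6, a gastric mucin gene, 8.94 against 2.73 to 3.12, and Gkn3, a gastrokine gene, 8.79 against 2.94 to 3.25. Their SDs, 3.27, 2.69 and 2.54, were among the 4 largest of all genes. The mean of the biliary and epithelial list was also highest in that pool (4.56, against 3.66 to 4.17), but its members differed. Tm4sf4 gave 6.33 there against 3.25 to 5.22, while Krt8 gave 5.29 there and was highest in replicate 1 at 5.74. The pancreatic genes Reg1, Pnliprp1 and Cpb1, chosen after their values were seen, gave 4.35, 4.39 and 4.50 there and stayed under the array median in the other pools, with gaps to the nearest of 1.91, 1.72 and 1.37. Whether other tissue entered that pool was not tested.

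Genes known to respond to cell isolation differed between pools too. Immediate early and stress genes had high signal in 10 of 22, and 17 of the 22 spanned 1 log2 unit or more (14 without replicate 1), against 20.4% of all genes (4.80% without it). Jun gave 8.56, 10.13, 9.04, 9.09 and 8.91 and Fos 6.79, 9.15, 7.37, 7.19 and 7.35, both highest in replicate 2. The chaperone genes Hspa1b (8.95, 10.10, 8.59, 8.33 and 10.21) and Hsph1 (5.03, 6.25, 5.46, 5.49 and 7.71) were highest in replicate 5. The related chaperone gene Hspa1a (8.40, 9.98, 9.35, 8.77 and 9.37) was highest in replicate 2. Dusp1, a phosphatase of the same response, gave 9.35 ± 0.31. The list means were 6.81, 7.38, 6.71, 6.59 and 7.16, an order unlike that of the Kupffer and stellate lists.

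Proliferation genes had high signal in 1 of 19, although 17 lay above the array median. The member in the top 10% was the replication clamp gene Pcna (9.62 ± 0.12), which also serves DNA repair. For 106 small nucleolar RNAs the median difference of an array from the mean of the other 4 was 0.48, -0.68, -0.04, -0.38 and 0.69 in replicates 1 to 5. The Y-linked genes Eif2s3y (5.87 ± 0.26), Uty (5.42 ± 0.34) and Kdm5d (4.13 ± 0.74) lay above the array median in every pool but for Kdm5d in replicate 1 (2.87), and Xist, which silences the second X chromosome of females, gave 2.03 to 2.32.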

How the data were processed

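Total RNA of the 5 control pools was hybridised to 1-colour Affymetrix arrays, per the labels. The deposited values are log2 signals from RMA (version not stated), per the submitters' processing notes. Neither array design nor genome build was given in the sources used here. Sorted values of the control arrays were identical (largest difference 0), so the authors had brought them to 1 distribution and no further normalization was applied. RMA equalises arrays, which hides overall shifts in RNA amount. Detection calls were not used here.

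Of 25428 probe sets, 24705 had 1 gene symbol, 0 had several and 723 were unnamed. The brighter probe set was kept for the 1 symbol with more than 1, which left 24704 genes. No column lacked a sample (0 columns). Means, SDs, ranks and spans were computed with pandas 2.3.3 and numpy 2.4.6 under Python 3.11.15, and the calculations were checked on simulated data. With 1 group there was no test between groups and no p-value, and 5 arrays limit the precision.

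The members and the 57 gene lists were chosen with earlier results of these data known, and the text names genes by a rule: the 4 markers, the highest 20 genes, the up to 3 brightest members of each receptor, secreted factor and transcription factor family and the 12 brightest of each class, the brightest and dimmest of each other list, the genes with the largest and smallest SD, and a fixed set that includes Gata4, Mcam, Wnt2 and Alb. Genes outside it, chosen after their values were seen, were Acvrl1, Angpt2, Calcrl, Clec1b, Col4a1, Cpb1, Cxcl12, Dll4, Edn1, Ednrb, Flt1, Fos, H2-Ab1, Hgf, Hsph1, Itga1, Klf2, Nos3, Notch1, Pnliprp1, Ramp2, Reg1, S1pr1, Tek, Tgfb1, Tie1 and Tlr4. Alternatives were the median, ranks within arrays, bright genes only, each pool left out, and the mean of probe sets.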

Additional observations from a re-analysis of the deposited data

Results flagged for a closer look

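A share was computed for 186 of the genes named in the report and below and for 27 list means. It is the distance of the most extreme control array from its nearest neighbour, divided by the range of the 5 arrays. A share above 0.71 was taken as a pool far from the others. This held for 29 genes and 1 list mean. Chance alone gives about 1 in 20 under normal spread, and over all 24704 genes 13.7% met it, with replicate 1 as the far array in 2736 of 3381.

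Replicate 1 lay below the others in Bgn (share 0.725), Cd81 (0.728), Fabp7 (0.722), Kdm5d (0.713), Lamp1 (0.771), Lum (0.725), Mmrn2 (0.767), Npc1 (0.83), Pcdhgb2 (0.906), Plpp1 (0.796), Rgs5 (0.744), Serping1 (0.871), Tgfbr2 (0.728) and Tnfrsf1a (0.789), and in the mean of the stellate cell list (0.713). It lay above the others in Ass1 (share 0.841), Defa34 (0.847), Fabp4 (0.734), H2bc9 (0.894) and Igkv8-16 (0.919). Replicate 2 was far above the others in the gastric genes Gkn3 (share 0.947), Muc6 (0.938) and Tff2 (0.885), in the pancreatic genes Pnliprp1 (0.745) and Reg1 (0.722) and in Fos (0.754), and below them in Bst2 (0.726). It was the low array for Selenop, where the other 4 had the same value and the share was therefore 1, although the distance was small. Replicate 3 was far above the others in Nos3 (share 0.738), and replicate 4 in Mx1 (0.714). Replicate 5 was the far array for 0 of the named genes and lists.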

How the results depend on the processing

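Counts of high-signal receptors (74 to 105) and secreted factors (51 to 74) stayed within 1.5 times their values of 104 and 71 under every alternative run. Transcription factors stayed at 78 to 80 except among the 10699 bright genes. There the top 10% held only 1070 genes, and 27 of the 79 lay in it. With each pool left out in turn, 1187 to 4595 genes spanned 1 log2 unit or more, the lowest without replicate 1, and 3353 did among genes above the array median. The median SD was 0.173 to 0.269 under all alternatives. The highest 100 signals shared 95 to 100 genes with the reported 100, and the top 10% shared 2388 to 2470 of 2470. The median over a list in place of its mean moved 15 of 27 lists by more than their SD between pools. No paired analysis was possible because a single group was described and no result comes from a test. Signal over background could not be assessed without detection calls, so the order of dim genes carries little weight.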

Other observations

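Some programmes outside the classes above were also read in the control pools. Of 18 interferon response genes 3 had high signal, led by Bst2 (8.94 ± 0.43, with 8.19 in replicate 2 and 8.95 to 9.23 in the others), a membrane protein that tethers viruses, while Mx1 (2.09 ± 0.36), an antiviral GTPase that is defective in many laboratory strains, gave signal below the array median in every pool. The median of the list was 6.20. Of 17 circadian clock genes 3 had high signal, with Clock at 7.96 ± 0.10 and the repressor gene Nr1d1 at 7.10, 8.14, 7.95, 8.18 and 7.74. Of 13 genes of caveolae and fenestral diaphragms 6 had high signal, among them the caveolar coat gene Cavin2 (9.55 ± 0.13) and Cav2 (8.18 ± 0.27, with 8.63 in replicate 1), while Ehd2, which sits at the caveolar neck, gave 5.74 ± 0.42.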
